A study of Drosophila melanogaster with 9 samples.

Results

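The genes described here belong to families that include secreted digestive enzymes of the fly gut. The families are maltases, which are alpha-glucosidases that split maltose and sucrose, lysozymes, which cut bacterial cell walls, the aspartyl protease Bace, trypsins and the Jonah serine proteases. The genes were followed in metastatic intestinal tumors of Drosophila melanogaster carried in host flies for 10 rounds of transplantation. Members were taken by gene symbol from probe sets that the platform annotation gives 1 symbol, with 1 probe set per gene by the highest mean. This gave 34 of the 11982 genes named on the array, namely 10 maltases (Mal-A1 to Mal-A8, Mal-B1 and Mal-B2), 3 lysozymes (LysX, LysS and LysP), Bace, 7 trypsins and 13 Jonah proteases. All 34 matched a RefSeq gene of the same symbol, and each had a single probe set. No amylase was analysed here, since the 1 probe set that fit the pattern carried several symbols. Some other genes of these families, such as gammaTry, LysE, Jon99Cii and Jon99Fii, are also not among the 34. Statements on a family therefore cover only its members here.

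Tumors came from Apc-Ras-Sna clones, in which MARCM recombination (hsp70-flp, FRT82B, Gal80) left cells homozygous for the null allele Apc Q8 and the loss-of-function allele Apc2 N175K. Under esg-Gal4, a driver active in intestinal progenitors, the same cells expressed UAS-Ras V12, UAS-Sna, UAS-GFP and UAS-Luciferase. Abdominal macrometastases of 3 flies, in which clones had been induced as adult females, were put into young yw adult females, and at each round 1 piece of an allograft went to RNA and the rest into new hosts. All groups share this genotype and differ in the number of transplant rounds, 1 in T1, 2 in T2 and 10 in T10, with 3 arrays each. The labels call the arrays of a round technical replicates, which differs from the account of 3 flies. The spread that p-values are set against may therefore be technical, and which account holds was not tested.

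Digestive enzymes are made by enterocytes, the absorptive cells of the midgut epithelium, and released into the lumen, where proteases cut dietary protein and glucosidases cut disaccharides. Their transcription is known to follow midgut region, diet and the state of differentiation of the enterocyte, and intestinal progenitors make little of them. Many of these genes arose by tandem duplication and still lie side by side in the genome. In the RefSeq annotation Mal-A1 to Mal-A8 are consecutive, Mal-B1 adjoins Mal-B2, and the trypsins zetaTry, etaTry, thetaTry, alphaTry, epsilonTry and betaTry form an unbroken row. Jon25Biii, Jon25Bii and Jon25Bi, the 4 Jon65A genes, Jon66Ci with Jon66Cii, and LysP with LysS are also neighbors, whereas iotaTry, LysX and Bace do not adjoin another member.

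Most of the 34 genes gave low and even signals in every transplant round. On the deposited scale, log2 expression after robust multi-array averaging (RMA), the mean over the 9 arrays lay below that of the median probe set (6.61) for 29 of the 34 genes (85.3%), against 50% of all probe sets. The difference between the highest and the lowest array was under 1 for 24 of the 34 genes (70.6%), against 65.8% of all probe sets and 73.7% of those below the median, so this share did not set the genes apart from other dim probe sets. These 24 genes lay between 2.96 and 6.45 on every array. A probe set has background signal of its own, so these values do not show whether such a gene was transcribed.

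A few members varied widely. The range over the 9 arrays exceeded 2 for 6 genes (17.6%, against 13.5% of all probe sets): LysX at 7.79, Mal-A6 at 6.75, Mal-A5 at 5.09, Bace at 4.12, Mal-B2 at 2.2 and iotaTry at 2.1. Of these, all but Bace also had means above the median probe set, and no other member did. In the plot of spread against level, LysX, Mal-A6, Mal-A5 and Bace lie above the line under which 95% of probe sets of similar level fall, which is a description and not a test.

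**Figure D1:**
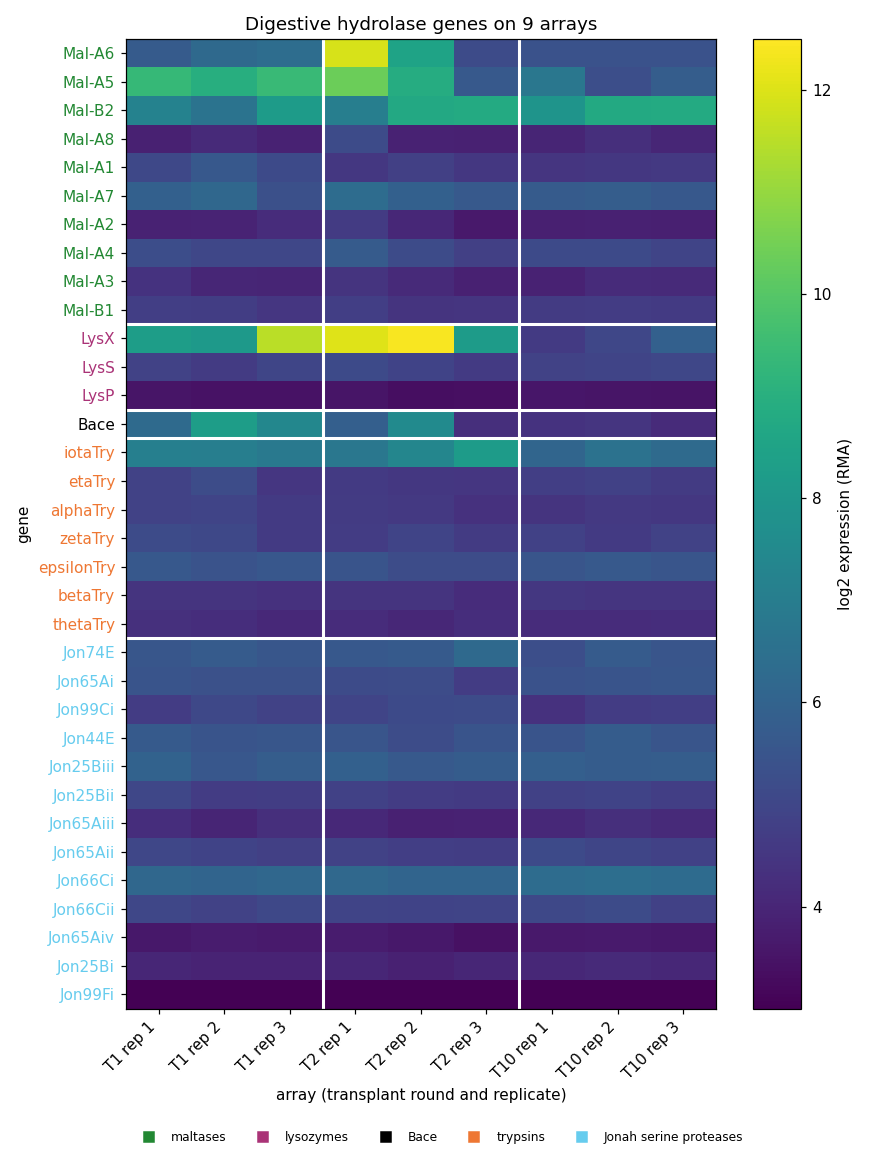
Log2 expression (RMA) of the 34 digestive enzyme genes (rows, grouped by family) on the 9 arrays (columns, by transplant round and replicate). LysX, Mal-A5, Mal-A6 and Bace change color across the arrays, whereas all 13 Jonah proteases keep values from 2.96 to 6.45.

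**Figure D2:**
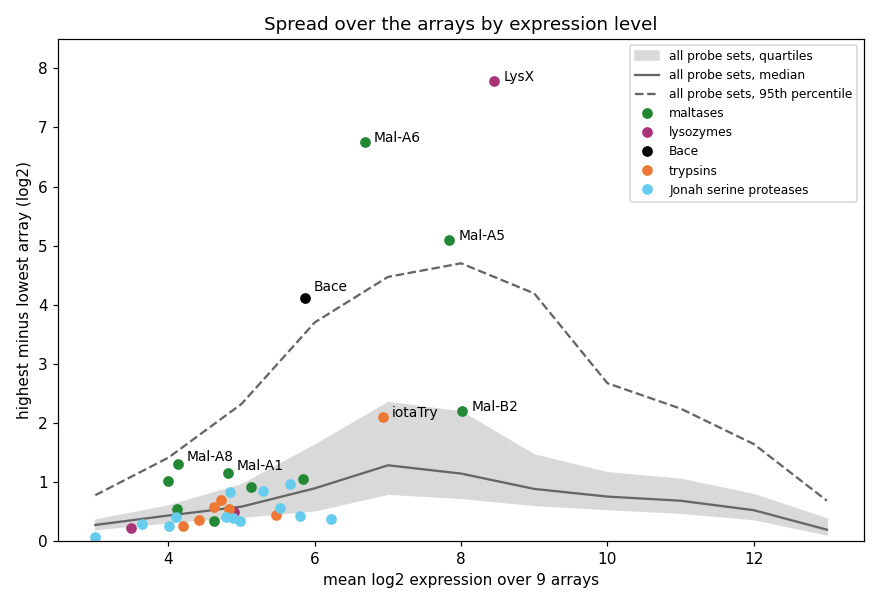
Highest minus lowest array (log2) against the mean log2 expression over 9 arrays for each digestive enzyme gene (points, colored by family), with the median (line), quartiles (band) and 95th percentile (dashed line) of all probe sets in bins of 1 log2. LysX (range 7.79) and Mal-A6 (6.75) lie farthest above the dashed line.

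Before the rounds are compared, the array of T2 replicate 3 needs mention. Over all probe sets, which are not independent replicates, it correlated at 0.964 to 0.984 with the T10 arrays and at 0.932 to 0.95 with the other T2 arrays, while array medians were alike (6.49 to 6.73). Among the digestive enzyme genes it was the lowest array for 12 of 34 (35.3%, against 16.8% of all probe sets). It was the highest for 4 (9.2% of all probe sets). All of the 12 but Mal-A6 were below the median probe set, and some margins were narrow, as in LysS (4.63, against 4.64 on the next array). The share among dim probe sets alone was not taken. For LysX (8.20, against 4.60 to 5.93 in T10) and iotaTry (8.20, against 6.10 to 6.58 in T10) T2 replicate 3 lay above all T10 arrays. Whether the label of this sample is right was not tested, and each T2 mean rests on that label. The rounds were compared on all 9 arrays, and again without this array. This array was singled out for its likeness to T10, so leaving it out tends over all probe sets to widen the difference between T10 and T2. It also tends to narrow the spread. Single genes can go the other way, as iotaTry did in T10 against T2 (-1.11 with the array and -0.73 without it). The calls made without this array are values of the other 8 arrays and not independent support. On all 9 arrays none of the 34 genes passed a Benjamini-Hochberg adjusted p of 0.05 in any of the 3 comparisons with limma's moderated test.

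The comparison of T10 with T1 asks how digestive enzyme expression differs between late and early transplants. LysX, Mal-A5, Bace and Mal-A1 had lower values on every T10 array than on any T1 array, with log2 changes of -4.12, -3.30, -2.97 and -0.74, and passed the test together only when T2 replicate 3 was left out of the shared estimate of spread. Most of their T10 values lay within the 2.96 to 6.45 of the dim genes, where background signal counts, so no fold change of the RNA is given. On all 9 arrays 0 members passed in either direction, where 0% of all probe sets passed as higher and 0.0107% as lower. With that array left out, 4 of 34 genes passed as lower (11.8%, background 3.96%) and 0 as higher (background 3.66%). With the T10 and T1 arrays fitted alone, 2 passed as lower, Mal-A5 (adjusted p = 0.012) and Bace (adjusted p = 0.0288), with backgrounds of 2.99% lower and 2.98% higher. In bulk samples such as these, fewer cells of a type and less RNA per cell cannot be told apart.

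As a set, the genes had the median change of all probe sets. The median log2 change in T10 against T1 was -0.01 over the 34 genes and -0.01 over all probe sets. Of the 34 genes 29 were below the median probe set, so this median says little of the few that varied widely. Values of T10 and T1 did not overlap for 8 genes that were lower in T10 (23.5%, background 15.1%), namely LysX, Mal-A5, Mal-A6, Mal-A1, Mal-A2, Bace, iotaTry and alphaTry. They did not overlap for 3 that were higher (8.82%, background 12.9%), namely Jon66Ci, Jon25Bi and betaTry. At an unadjusted p under 0.05 on all 9 arrays, 5 genes were lower (14.7%, background 11.5%) and 1 higher (2.94%, background 9.34%).

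LysX, a lysozyme gene that does not adjoin another lysozyme gene in the RefSeq annotation, varied more than any other member. Its log2 expression was 8.29, 8.09 and 11.53 in T1 replicates 1, 2 and 3. In T2 it was 12.02, 12.39 and 8.20, and in T10 4.60, 5.01 and 5.93. All 3 T10 arrays lay below all 6 arrays of the early rounds, and T2 replicate 3 lay among the T1 values. The means were 5.18 ± 0.68 in T10 and 9.30 ± 1.93 in T1 (SD, n = 3 each), a log2 change of -4.12 (SE 1.28, limma adjusted p = 0.132 on all 9 arrays and 0.0399 without T2 replicate 3). T1 replicate 3 alone moved this change to -3.01 when left out (adjusted p = 0.188), whereas without T1 replicate 2 it was -4.73 (adjusted p = 0.28). Against T2, with a mean of 10.87 ± 2.32 (SD, n = 3), LysX in T10 differed by -5.69 (SE 1.28, adjusted p = 0.171). Set against T2 replicates 1 and 2 alone, the difference was -7.02 (SE 1.01, adjusted p = 0.0103). The other lysozymes among the members were flat. LysS, known from the digestive tract, ran from 4.63 to 5.12 and LysP, known from the adult salivary gland, from 3.36 to 3.57. In T10 against T1, LysS differed by 0.11 (SE 0.15, adjusted p = 0.717) and LysP by 0.04 (SE 0.08, adjusted p = 0.833).

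The maltases held flat and widely varying genes side by side. Mal-A5 had 9.38, 8.95 and 9.43 in T1. It had 10.37, 8.90 and 5.64 in T2, and 6.78, 5.28 and 5.81 in T10. The T10 arrays and T2 replicate 3 thus lay together, below the other 5 arrays. The means were 5.96 ± 0.76 in T10 and 9.25 ± 0.26 in T1 (SD, n = 3 each), a log2 change of -3.30 (SE 1.06, adjusted p = 0.14 on all 9 arrays). The adjusted p for this change was 0.0119 without T2 replicate 3. Against T2 the arrays overlapped, and the log2 change was -2.35 on all 9 arrays (adjusted p = 0.306). It was -3.68 without T2 replicate 3 (SE 0.54, adjusted p = 0.011) but -1.31 without T2 replicate 1 (adjusted p = 0.51).

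Mal-A6, the next gene in the row after Mal-A5, had another pattern. It was at 5.74, 6.26 and 6.39 in T1, at 11.91, 8.51 and 5.16 in T2, and at 5.38, 5.40 and 5.38 in T10. Only T2 replicates 1 and 2 were high, and they were far from each other. In T10 against T1 the log2 change was -0.74 (SE 1.41, adjusted p = 0.817). In T10 against T2 it was -3.14 (SE 1.41, adjusted p = 0.304) on all 9 arrays. It was -4.82 without T2 replicate 3 (SE 0.85, adjusted p = 0.0198) but -1.45 without T2 replicate 1 (adjusted p = 0.458), the array at 11.91. The same 2 arrays lay above all T1 arrays, with a log2 change of 4.08 in T2 against T1 (SE 0.85, adjusted p = 0.349).

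Mal-A1, at the other end of the row, had lower values already in T2. It had 5.05, 5.62 and 5.14 in T1, 4.55, 4.80 and 4.53 in T2, and 4.47, 4.53 and 4.59 in T10. Neither the T10 nor the T2 arrays overlapped T1. The mean was 4.53 ± 0.06 in T10 and 5.27 ± 0.31 in T1 (SD, n = 3 each), a log2 change of -0.74 (SE 0.16, adjusted p = 0.0897), with an adjusted p of 0.0425 without T2 replicate 3. In T2 against T1 it was -0.64 (SE 0.16, adjusted p = 0.76). All 9 values lay below the median probe set.

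Mal-B2, in the smaller maltase pair, ran the other way. It had 7.20, 6.62 and 8.23 in T1, 7.05, 8.72 and 8.82 in T2, and 7.93, 8.78 and 8.81 in T10. T1 replicate 3 lay within the T10 range, so the rounds overlapped. The means were 8.51 ± 0.50 in T10 and 7.35 ± 0.82 in T1 (SD, n = 3 each), and the log2 change of 1.16 (SE 0.58, adjusted p = 0.3) did not pass in any of the fits. Mal-B2 was the only member more than 1 log2 higher in T10 than in T1 (5.62% of all probe sets were), whereas 3 were more than 1 lower (4.7% of all).

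The other 6 maltases stayed between 3.65 and 6.36. In T2 replicate 1, where Mal-A6 and Mal-A5 were highest, Mal-A2, Mal-A3, Mal-A4, Mal-A7 and Mal-A8 were also at their highest but Mal-A1 was not. Mal-A8 was at 5.16 against 3.86 to 4.29 on the other 8 arrays. Mal-A7 was at 6.36, Mal-A4 at 5.72, Mal-A2 at 4.66 and Mal-A3 at 4.43 on this array. For Mal-A3 the margin was small, with 4.40 in T1 replicate 1. Cross-hybridization between these related genes was not assessed, and its part in this pattern was not tested. In all, T2 replicate 1 was the highest array for 9 of the 34 genes, whereas it was highest for 9.93% of all probe sets. No change of these 6 genes passed in any fit.

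**Figure D3:**
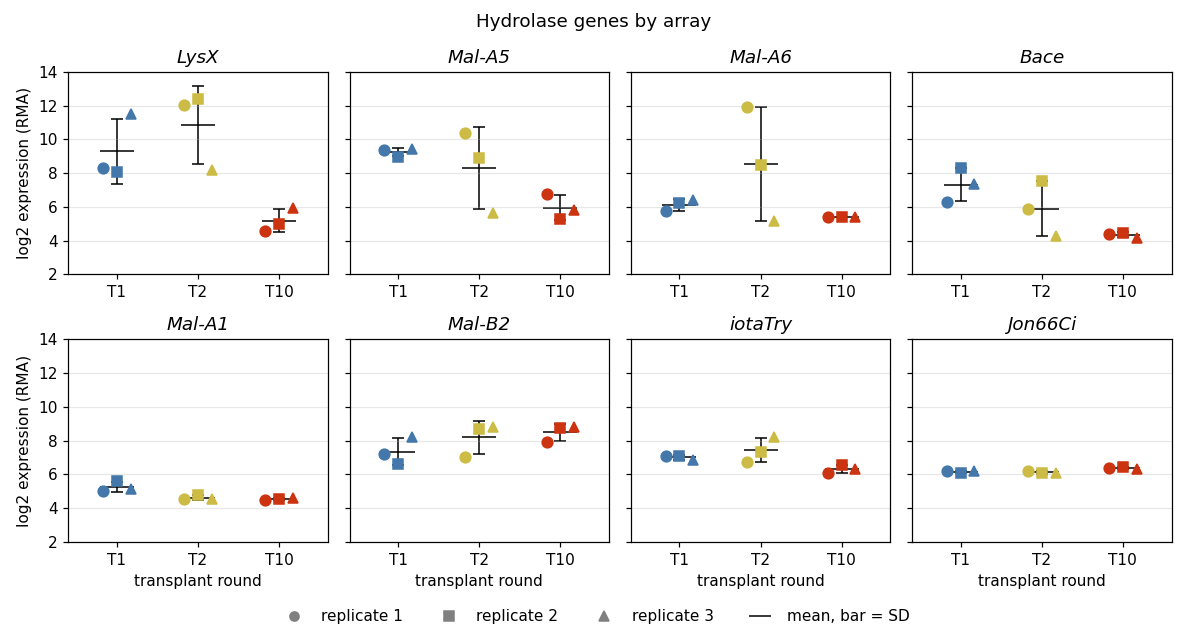
Log2 expression (RMA) on each array of 8 digestive enzyme genes, by transplant round (point shape = replicate, line = mean, bar = SD, n = 3). LysX, Mal-A5, Bace and Mal-A1 have all T10 values below all T1 values, Mal-A6 is high only in T2 replicates 1 and 2, and T2 replicate 3 lies with T10 for Mal-A5, Mal-A6 and Bace but not for LysX or iotaTry.

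Bace, an aspartyl protease related to the human beta-secretase, was above its T10 range in T1 and in T2 replicates 1 and 2. It had 6.30, 8.30 and 7.38 in T1, 5.89, 7.54 and 4.28 in T2, and 4.40, 4.48 and 4.18 in T10. The T10 arrays lay close together, and T2 replicate 3 lay among them. The mean was 4.35 ± 0.16 in T10 and 7.33 ± 1.0 in T1 (SD, n = 3 each), a log2 change of -2.97 (SE 0.80, adjusted p = 0.105). It passed without T2 replicate 3 (adjusted p = 0.0274). In T10 against T2 the log2 change was -1.55 (SE 0.80, adjusted p = 0.358) and, without that array, -2.36 (SE 0.64, adjusted p = 0.0788), while without T2 replicate 2 it was -0.73 (adjusted p = 0.711).

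Among the trypsins, which cut proteins after basic residues, only iotaTry was above the median probe set. Its values were 7.11, 7.08 and 6.85 in T1, 6.76, 7.36 and 8.20 in T2, and 6.10, 6.58 and 6.30 in T10. All T10 arrays lay below all others, and T2 replicate 3 was the highest of the 9. The mean was 6.33 ± 0.24 in T10 and 7.44 ± 0.72 in T2 (SD, n = 3 each), a log2 change of -1.11 (SE 0.33, adjusted p = 0.213). In T10 against T1 the change was -0.69 (SE 0.33, adjusted p = 0.285). The adjusted p without T2 replicate 3 was 0.0983 against T2 and 0.0841 against T1, so iotaTry passed in neither.

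The 6 trypsins of the row were dim and flat. Their values lay between 4.04 and 5.64, and the widest range was below 1. In alphaTry the T10 arrays (4.44, 4.58 and 4.54) lay below the T1 arrays (4.87, 4.94 and 4.63), a log2 change of -0.29 (SE 0.12, adjusted p = 0.215). In zetaTry the change was -0.17 (SE 0.16, adjusted p = 0.594), with 4.83, 4.63 and 4.88 in T10 and 5.17, 5.06 and 4.63 in T1. For epsilonTry, the brightest of the row, it was 0.01 (SE 0.11, adjusted p = 0.962), and the sign turned when single arrays were left out. No trypsin differed between rounds past the threshold in any fit.

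The Jonah proteases, a family of secreted serine endopeptidases found in the gut, had the smallest median range of the families. All 13 lay below the median probe set and varied by 0.07 to 0.97 over the arrays, with a median range of 0.40, against 0.57 for all probe sets below the median. Jon66Ci, the brightest, had 6.36, 6.45 and 6.33 in T10, above both the 6.08 to 6.19 of T1 and the 6.08 to 6.21 of T2. The log2 changes of Jon66Ci were 0.23 against T1 (SE 0.08, adjusted p = 0.182) and 0.26 against T2 (SE 0.08, adjusted p = 0.231). Jon99Ci had 4.34, 4.68 and 4.75 in T10, below the 4.93, 5.12 and 5.16 of T2 and overlapping the 4.67, 5.07 and 4.88 of T1. Its log2 change was -0.48 against T2 (SE 0.15, adjusted p = 0.221) and -0.28 against T1 (SE 0.15, adjusted p = 0.331). Jon25Bi (0.12, SE 0.08, adjusted p = 0.452) and Jon25Biii (0.02, SE 0.13, adjusted p = 0.94) also moved little between T1 and T10. The T10 values of Jon25Bi were 4.04, 4.14 and 4.07, against 4.01, 3.94 and 3.94 in T1. Those of Jon25Biii were 5.87, 5.75 and 5.81 in T10 and 5.99, 5.57 and 5.80 in T1. Over the 13 genes the median change in T10 against T1 was 0.02.

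**Figure D4:**
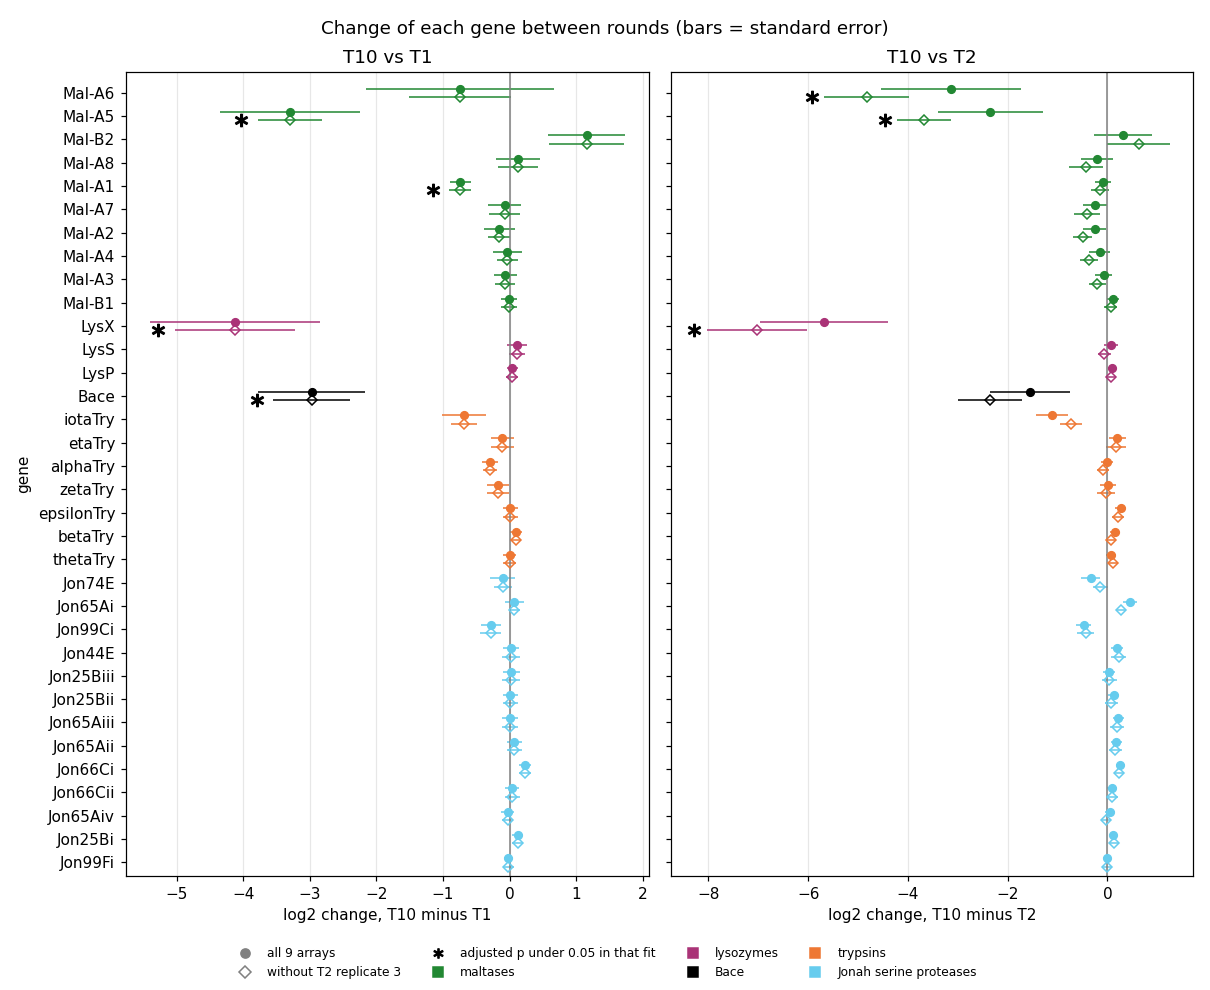
Log2 change of each digestive enzyme gene in T10 minus T1 (left) and T10 minus T2 (right), with bars of 1 standard error. Filled circles are the fit on all 9 arrays, in which no gene passed, open diamonds the fit without T2 replicate 3, and asterisks mark an adjusted p under 0.05 in that fit (4 genes at left, 3 at right).

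The comparison of T10 with T2 depended on which T2 arrays were used. On all 9 arrays 0 genes passed in either direction with limma (background 0% each way). At an unadjusted p under 0.05, 3 were lower (LysX, iotaTry and Jon99Ci, background 8.6%) and 3 higher (epsilonTry, Jon65Ai and Jon66Ci, background 8.45%). With T2 replicate 3, the T2 array most like T10, left out, 3 genes passed as lower in T10 (8.82%, background 4.32%), namely LysX, Mal-A5 and Mal-A6, and 0 as higher (background 3.15%), while the calls over all probe sets numbered 1401, against 0 on all 9 arrays. Arrays of T10 and T2 did not overlap for 3 genes lower in T10 (8.82%, background 9.41%), LysX, iotaTry and Jon99Ci, and for 7 that were higher (20.6%, background 11.9%). These 7 were epsilonTry, etaTry, betaTry, Jon65Ai, Jon65Aiii, Jon66Ci and Jon25Bi, with log2 changes of at most 0.44. The median change was 0.04 over the 34 genes and 0.04 over all probe sets.

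Between T2 and T1 no member passed with or without T2 replicate 3, where 0% of all probe sets passed as higher and 0.00533% as lower. At an unadjusted p under 0.05, 3 genes on all 9 arrays were lower in T2 (Mal-A1, alphaTry and Jon65Ai, background 4.15%) and 0 higher (background 2.01%). Without that array the counts were 1 lower (Mal-A1, background 2.29%) and 2 higher (Mal-A6 and LysX, background 3.05%). On all 9 arrays the largest differences were those of Mal-A6, 2.40 higher in T2 than in T1 (SE 1.41, adjusted p = 0.763), and LysX, 1.57 higher (SE 1.28, adjusted p = 0.788). Bace was 1.42 lower in T2 (log2 change -1.42, adjusted p = 0.76). Values of T2 and T1 did not overlap for 2 genes lower in T2, Mal-A1 and Jon65Ai (5.88%, background 6.86%), and for 0 that were higher (background 2.57%). Any 2 of the 3 comparisons share the arrays of a round, so their values are not independent.

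Other hydrolases and mucosal proteins of the gut were also mostly dim. Of 28 such genes 25 were measured, and 23 had a mean under that of the median probe set, with a median change of -0.09 in T10 against T1. None passed on all 9 arrays. In T10 against T1 without T2 replicate 3, only Phae1, a predicted serine protease, passed as lower (1 of 25, background 3.96%). Phae1 had 5.11, 4.95 and 4.99 in T10 and 5.60, 6.12 and 5.59 in T1, a log2 change of -0.75 (SE 0.17, adjusted p = 0.041, against 0.131 on all 9 arrays). Ser8 (0.49), tobi, an alpha-glucosidase gene (0.32), and Ser6 (-0.19) had the next smallest p, and none of them passed. In T10 against T2 without T2 replicate 3, 3 of 25 passed as lower (background 4.32%) and 0 as higher (background 3.15%). The 3 were Phae1 (adjusted p = 0.00704), Peritrophin-15a (0.0164) and Peritrophin-15b (0.00577). Peritrophin-15b, a chitin-binding protein of the lining that shields the midgut, and CG18180, a predicted serine protease, were picked after their values were seen. Peritrophin-15b was high in T2 replicates 1 and 2 (8.06 and 7.36) and at 4.21 to 5.42 on the other 7 arrays. CG18180 stood at 8.48 in T2 replicate 1, and from 4.57 to 6.13 elsewhere.

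Of 14 genes known to regulate digestive enzymes in the midgut, 13 were measured, and none passed on all 9 arrays. When T2 replicate 3 was left out, sug, Hnf4 and Hr96 were lower in T10 than in T1 (3 of 13, background 3.96%) and 0 were higher (background 3.66%). The gene sug (sugarbabe) encodes a zinc finger factor induced by dietary sugar. It had 6.15, 6.37 and 6.51 in T10 and 8.02, 8.17 and 7.31 in T1, a log2 change of -1.49 (SE 0.27, adjusted p = 0.0224 in this fit and 0.103 on all 9 arrays). The nuclear receptors Hnf4 and Hr96, which act in lipid metabolism, differed by -0.70 (SE 0.15, adjusted p = 0.0357) and -0.46 (SE 0.10, adjusted p = 0.0446), with adjusted p of 0.105 and 0.0996 on all 9 arrays. The POU factor gene nub, an enterocyte marker, was 1.55 higher in T10 (SE 0.51, adjusted p = 0.121 in the same fit), which did not pass. In T10 against T2 without T2 replicate 3, 5 of 13 passed as lower (background 4.32%), namely srp, cad, sug, Hr96 and Hnf4. In that comparison 0 passed as higher (background 3.15%).

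The endodermal factor GATAe and the homeobox gene cad, both on the list of regulators, were picked for mention after their values were seen. GATAe had 6.53, 4.98 and 8.75 in T10 against 8.20, 8.77 and 9.43 in T1, and its change of -2.05 did not pass (SE 0.87, adjusted p = 0.215 without T2 replicate 3). T10 replicate 3 stood within the T1 range of GATAe. cad had 3.98, 3.79 and 4.11 in T1, 9.75, 6.78 and 3.67 in T2, and 4.05, 3.67 and 3.81 in T10. As in Mal-A6, T2 replicate 1 was highest, followed by T2 replicate 2, with the other 7 arrays low. On all 9 arrays the log2 change of cad in T10 against T2 was -2.89, given as a description since the gene was picked for this pattern.

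Enterocytes are the midgut cells that make digestive enzymes. Of 9 enterocyte markers 6 were measured. None passed on all 9 arrays, and without T2 replicate 3, 4 of them passed as lower in T10 than in T1 and 0 as higher, with a list median of -2.24 (background 3.96% lower). These were mex1, a gene expressed in the midgut epithelium, and mesh, Ssk and Tsp2A, which encode proteins of the smooth septate junction. For mex1 the T10 arrays had 5.53, 4.85 and 4.96 and the T1 arrays 7.56, 9.06 and 9.06, a log2 change of -3.45 (SE 0.43, adjusted p = 0.00697, against 0.164 on all 9 arrays). For mesh they had 6.13, 4.69 and 5.96 in T10 and 8.89, 10.15 and 11.21 in T1, a change of -4.49 (SE 0.62, adjusted p = 0.00977, against 0.177 on all 9 arrays). T2 replicate 3 stood at 5.63 for both, with T10. The mean of the list was 7.0 to 7.19 in T10, 7.37 to 10.30 in T2 and 8.22 to 9.44 in T1, and T2 replicate 3 was the 7.37. The part of these markers in the results for LysX, Mal-A5 and Bace was not tested. Of the remaining 2 markers measured, nub was higher in T10 by 1.55 and mag, a lipase gene, was at 4.64 to 5.54 on every array.

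**Figure D5:**
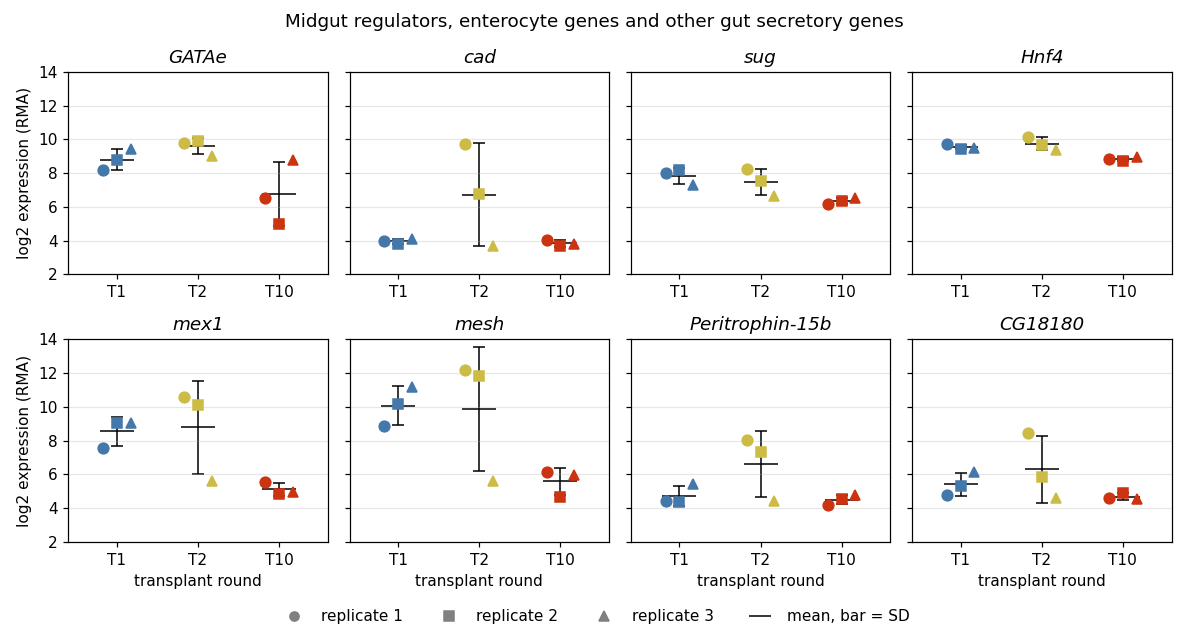
Log2 expression (RMA) on each array of 4 regulators of midgut genes, 2 enterocyte genes and 2 other gut genes, by transplant round (point shape = replicate, line = mean, bar = SD, n = 3). mex1 and mesh are low in T10 and T2 replicate 3, whereas cad, Peritrophin-15b and CG18180 are highest in T2 replicate 1.

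Markers of other cell types were read in the same arrays, since a piece of allograft can hold host cells. In the fit without T2 replicate 3, 1 of 5 intestinal progenitor markers was lower in T10 than in T1 (Sox100B, log2 change -4.56, adjusted p = 0.000923, background 3.96%). In that fit 3 of 7 tracheal markers (verm, serp and kkv) and 1 of 7 hemocyte markers (crq) were higher (background 3.66%). None of the markers passed on all 9 arrays. Of the 7 hemocyte markers 5 had means below the median probe set, whereas crq was at 8.30 to 9.82. The tracheal marker btl had 7.69, 8.18 and 8.45 in T10, below the 8.99, 9.29 and 10.58 of T1, and its log2 change of -1.51 did not pass (adjusted p = 0.134 without T2 replicate 3). None of the fat body (8 measured), muscle (7), enteroendocrine (7) or salivary gland (7) markers passed in T10 against T1. In T10 against T2 none of the markers passed on all 9 arrays. Without T2 replicate 3 the same 4 enterocyte markers, Sox100B and 2 fat body markers, Yp2 (adjusted p = 0.0396) and Yp3 (adjusted p = 0.0404), passed as lower (background 4.32%). The same 3 tracheal markers passed as higher (background 3.15%). The mean of the tracheal list was 9.62 to 10.30 in T10 and 6.67 to 7.75 in T1, and T2 replicate 3 had 9.74. The yolk protein gene Yp2 was at 10.55 and the fat body lipoprotein gene apolpp at 9.93 in T2 replicate 2, above the other 8 arrays. Whether these lists bear on the digestive enzyme genes was not tested.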

How the data were processed

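RNA of 9 allograft samples (25 ng each, amplified over 17 cycles, 8 µg of cDNA labeled) was hybridized to single-color Affymetrix arrays. The authors used the R packages affy and affyPLM for RMA background correction and summarization. The log2 expression values they deposited have 2 decimals. Package versions were not given in the sources used here. Of 18952 probe sets 183 controls were left out, 18769 were tested without a filter on dim ones, and 0 columns were without a sample. The annotation gave 13647 probe sets 1 symbol, 402 several and 4720 none, the last being unnamed here. Of the 13647, 13544 matched RefSeq (Release 6 plus ISO1 MT) by Entrez identifier, which served for names and neighbors only. Of the 34 members 33 have a probe set with the plain suffix, and cross-hybridization between related genes was not assessed.

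Rounds were compared in R 4.3.3 with limma 3.58.1 (lmFit, eBayes, two-sided, no covariate) on all 9 arrays, adjusted by Benjamini-Hochberg over 18769 probe sets with a threshold of 0.05. Members were described by counts and medians beside those of all probe sets, with no set test. The 10 lists (104 different genes, 90 measured, some in more than 1 list) and the members were chosen with earlier results of these data known. Values were given for members past the threshold in the fit on all arrays, on the compared rounds alone or without T2 replicate 3, and in each family for the 3 with the smallest p in T10 against T1 and the 2 with the highest mean. In other lists up to 4 with the smallest p were eligible. Alternatives changed the arrays fitted, the moderation, array weights, a filter on dim probe sets, quantile or median scaling and probe sets per gene, used the replicate number for blocking, or dropped single arrays or all arrays of a number. Precision is limited by the number of arrays. Scripts were tested on simulated data.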

Additional observations from a re-analysis of the deposited data

How the results depend on the processing

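Over 21 alternative settings the count of digestive enzyme genes past the threshold in T10 against T1, 0 on all 9 arrays, became 2 with the 2 rounds alone, 3 with array weights, 4 without T2 replicate 3 and 1 without the arrays numbered 3 (LysX, adjusted p = 0.00417), and stayed 0 in the others, including each fit without another single array. The range over the fits that left out an array or a replicate number was 0 to 4. The calls over all probe sets were 2 on all 9 arrays and 1122, 1997, 1430 and 1449 in those 4 fits. Without T1 replicate 3 they were 519, with 0 members among them, and in the other settings 0 to 8. In T10 against T2, with 0 on all 9 arrays, 1 gene passed with array weights (LysX, adjusted p = 0.0364), 3 without T2 replicate 3 and 2 without the arrays numbered 3 (LysX and Mal-A5), with 1118, 1401 and 1263 probe sets called against 0 (0 to 5 in the other settings), and leaving out arrays gave 0 to 3. In T2 against T1, 1 gene passed without the arrays numbered 3 (LysX, log2 change 4.01, adjusted p = 0.0248, 20 probe sets called against 1, while 34 were called without T1 replicate 3 and 0 to 5 in the other settings), and leaving out arrays gave 0 to 1. Adjusted p over all settings in T10 against T1 ran from 0.00417 to 0.644 for LysX, 0.0119 to 0.655 for Mal-A5, 0.0274 to 0.644 for Bace and 0.0304 to 0.644 for Mal-A1, all with lower values in T10 in every setting. With dim probe sets left out only 5 members remained, with medians of -0.74 (T10 against T1), -2.35 (T10 against T2) and 0.85 (T2 against T1). Median centering gave a median of -0.16 in T2 against T1. The sign of epsilonTry in T10 against T1 turned without T1 replicate 2 (-0.04), T10 replicate 2 (-0.03) or all arrays numbered 2 (-0.085), and was 0 after median centering, with leave-out values of -0.085 to 0.065. That of Jon25Biii turned without T1 replicate 2 (-0.085), T10 replicate 1 (-0.01) or all arrays numbered 2 (-0.055), with leave-out values of -0.085 to 0.125. The cause was not tested in these cases.

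Samples of the same number did not clearly deviate together (correlations of -0.28 to 0.19, over 0.1 in 3 of 9 pairs, and 7 of 18 best with their own number). With 3 arrays per round this check cannot show whether the numbers are pairs. The sources used here do not say whether a number follows 1 metastasis through the rounds, and the numbers were not used as pairs in the main fit. With the replicate number as a fixed or random block, 0 members passed in each comparison, as without it (5 probe sets called in all with the fixed block in T10 against T1), and the medians were -0.01, 0.04 and -0.05. For the 29 members below the median probe set, signal over background limits what a small difference can show.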
